A study of Drosophila melanogaster with 6 samples.

Results

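Regions bound by the histone variant H2Av were described on chromosome 4 of Drosophila melanogaster and on 2 Mb of the arms 2L, 3L, 3R and X. These 2 Mb lie at the centromere-side end of each assembled arm sequence, which need not reach the centromere. The combined list of the study held 610 regions in these windows of 5905 in all (10.3%), with 108 on chromosome 4, 148 on the 2L end, 187 on the 3L end, 108 on the 3R end and 59 on the X end. The lists of the 3 ChIP replicates held 420 of 4403, 513 of 5016 and 499 of 4763 regions. Members were chosen by position alone, as all regions of chromosome 4 (1 to 1351857) and those with their midpoint in 2L from 21011545 to 23011544, 3L from 22543558 to 24543557, 3R from 1 to 2000000 or X from 20422828 to 22422827, on FlyBase release 5. Together these 5 windows hold 9.35 Mb, 5.54% of the sequence named in the file headers. In this release the sequences of 3R and chromosome 4 begin on the centromere side and those of 2L, 3L and X end there. The rest of each of the 4 arms is called its interior below, and the 4 interiors together (89.9 Mb) served for comparison.

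Chromatin immunoprecipitation with sequencing (ChIP-seq) used whole embryos of the wild-type strain Oregon-R from population cages, 14 to 16 h old and fixed with 1.8% formaldehyde, with 3 ChIP libraries and 3 input libraries (chromatin without the antibody). Whole embryos hold many cell types, so a region is an average over them. The authors deposited a list of enriched regions for each ChIP library against its input, and a combined list for the replicate set. The lists give no read numbers, so depth is unknown, and the labels do not say whether replicates came from separate collections of embryos, so SDs may measure technical spread. By the experiment numbers in the labels, ChIP replicate 1 stands next to its input, and replicates 2 and 3 stand apart from theirs. The labels name no batch, and where replicate 1 differed, this cannot be told apart from whatever those numbers stand for.

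H2Av takes the place of H2A in a part of the fly's nucleosomes. It does the work of the mammalian variants H2A.Z and H2A.X, and is known both from the starts of active genes and from heterochromatin, the compact chromatin that carries methylated H3K9 and the protein HP1a. Chromosome 4, the dot chromosome, is unusual in that its active genes lie within chromatin rich in HP1a. The assembled arms run at their centromere side from gene-rich euchromatin into pericentric heterochromatin, where repeats are frequent. Where within each end that change lies was not analysed here, nor was the share of each window open to read alignment.

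Chromosome 4 had more of its bases inside H2Av regions than any of the 4 ends, and 3 of the 4 ends had more than the interior of their own arm. Regions held 32.2%, 41.0% and 38.7% of chromosome 4 in replicates 1, 2 and 3. They held 23.0%, 32.7% and 28.8% of the 3L end, and 22.2%, 27.7% and 26.0% of the 2L end. The 3R end followed with 21.9%, 24.6% and 24.8%. The X end was lowest, with 9.52%, 11.5% and 11.2%. All 3 replicates gave this order for windows of 2 Mb. The order of the 2L, 3L and 3R ends did not hold otherwise, as the first 1 Mb of 2L (34.5% ± 3.76) was above that of 3L (28.5% ± 6.32), and among the highest-scoring 50% of regions 3R (16.1% ± 1.19) and 2L (14.0% ± 2.67) were above 3L (11.4% ± 3.28). In the full lists its neighbours 3L and 2L, and 2L and 3R, overlapped in their ranges, with log2 ratios of only 0.15 ± 0.092 in favour of 3L and 0.086 ± 0.078 in favour of 2L (SD, n = 3).

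Ratios taken within each replicate list set these shares against each other. Chromosome 4 stood 1.33-fold above the 3L end (log2 ratio 0.41 ± 0.080, SD, n = 3), the smallest of the 4 ratios to an end, and the ranges overlapped, as 3L in replicate 2 exceeded chromosome 4 in replicate 1. It stood 1.47-fold above the 2L end (0.56 ± 0.017), 1.56-fold above the 3R end (0.64 ± 0.089) and 3.47-fold above the X end (1.79 ± 0.037), with no overlap of replicates. With ends of 1 Mb the log2 ratio to the 2L end was only 0.11 ± 0.026. Against the pooled interiors, with 15.6%, 17.6% and 17.5% of bases inside regions, the fold was 2.20 (1.14 ± 0.087). Each ratio was above 0 in 3 of 3 replicates. With an exact permutation test (two-sided, flipping the signs of the replicates) p was 0.25 for each of these ratios and for the 4 ratios of an end to its interior, the smallest value that 3 replicates allow. It can therefore make no call. The SDs show how far the 3 lists repeat a ratio, and not how much windows of an arm vary among themselves. From 2 to 6 Mb from the centromere side, steps of 1 Mb had mean shares from 4.43% (on 2L) to 32.2% (on 3L).

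The X end differed in direction from the other ends when each was set against its own arm. The 2L end had 1.61 times the share of the 2L interior (log2 ratio 0.69 ± 0.084, SD, n = 3), where regions held 14.6%, 16.2% and 16.2%. On 3L the fold was 1.71 (0.77 ± 0.17), over an interior of 15.2%, 17.0% and 16.8%. On 3R it was 1.44 (0.53 ± 0.012), over 15.2%, 17.2% and 17.1%. On X the end had 0.558 times the share of the interior (-0.84 ± 0.042), which held 17.6%, 20.1% and 19.9%. No replicate of an end overlapped the replicates of its own interior on any of the 4 arms. Whether the arms differ was not tested.

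**Figure D1:**
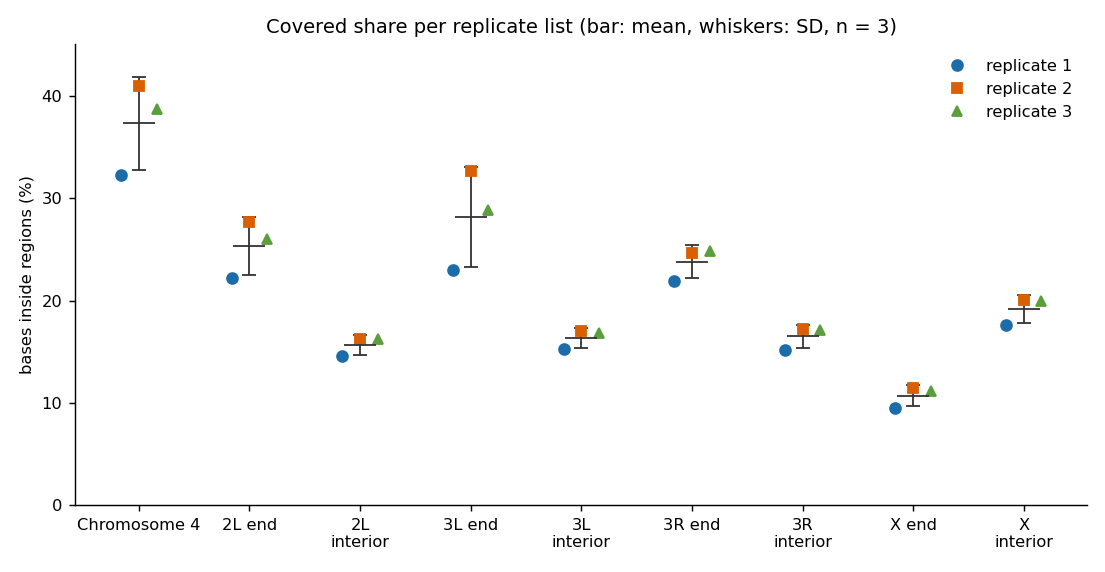
Share of bases inside H2Av regions (y axis, %) on chromosome 4 and on the centromere-side end and interior of each arm, with 1 point per replicate list, the mean as a bar and the SD as whiskers (n = 3). Chromosome 4 has the highest mean (37.3%), and X is the arm where the end lies below the interior.

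Replicate 1 held less of each window and of the interiors than the other replicates, most so on the 3L end and chromosome 4. Its covered share was 0.809 times the mean of replicates 2 and 3 on chromosome 4, 0.749 times on the 3L end, 0.825 on the 2L end, 0.840 on the X end and 0.887 on the 3R end, against 0.891 in the interiors. On chromosome 4 it was the lowest of the 3 replicates in 14 of 14 steps of 100 kb. Elsewhere it was lowest in 17 of 20 steps on 3L, 14 of 20 on 2L, 13 of 20 on 3R and 9 of 20 on X. In the interiors it was lowest in 566 of 902. These counts leave out ties for the lowest share, which were 1, 4, 3, 9 and 184 steps in that order. This difference was not tested.

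The higher share of the 3L end did not hold among high-scoring regions. Scores are the authors' own, on an unstated scale, and served only to rank regions within a list. With the highest-scoring 50% of each list, regions held 7.72%, 14.0% and 12.4% of the 3L end and 10.6%, 12.5% and 12.5% of the 3L interior, and the log2 ratio turned to -0.097 ± 0.32, with -0.45, 0.17 and -0.0084 in the 3 replicates. Chromosome 4 kept 13.9%, 26.9% and 20.7% against 11.4%, 13.2% and 13.3% in the interiors (0.65 ± 0.36). Replicates of chromosome 4 then overlapped those of the 3R end, with 14.9%, 17.3% and 15.9%, and replicate 1 was higher on 3R (log2 ratio of chromosome 4 to 3R 0.30 ± 0.37). The 2L end (0.26 ± 0.17), the 3R end (0.34 ± 0.074) and the X end (-0.86 ± 0.039, SD, n = 3) kept their direction in each of the 3 replicates.

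Chromosome 4 had more regions per length than the interiors, of about the same mean width. It carried 63.6, 74.0 and 73.2 regions per Mb, against 31.6, 34.6 and 33.0 in the interiors, a log2 ratio of 1.09 ± 0.071 (SD, n = 3). Mean width was 5066, 5536 and 5285 bp against 4939, 5085 and 5291 bp, a log2 ratio of 0.053 ± 0.064, which lay within the spread. Of the log2 ratio in covered share, 1.14, nearly all thus lay in the number of regions. Against the 3L end the density of chromosome 4 gave a log2 ratio of only 0.096 ± 0.11, within the spread. In the combined list the 3L end was the denser, with 93.5 regions per Mb against 79.9 on chromosome 4.

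On the 2L and 3L ends, regions were dense but narrow. The 2L end had 47.5, 61.0 and 57.0 regions per Mb, 1.86 times its interior (log2 ratio 0.90 ± 0.13), and the 3L end 54.5, 72.0 and 72.0, which is 1.97 times its interior (0.98 ± 0.19). Their regions were narrower than in the interior, with median widths of 3272, 3165.5 and 3359 bp on the 2L end (log2 ratio -0.25 ± 0.016) and of 2737, 3061 and 2605 bp on the 3L end (-0.44 ± 0.15, SD, n = 3). On the 3R end the medians of 3982.5, 3971.5 and 3992.5 bp were slightly above the interior (0.067 ± 0.045), but with ends of 1 Mb in place of 2 Mb this turned to -0.065 ± 0.034. The X end had 21.0, 25.5 and 24.0 regions per Mb, 0.626 times its interior, with medians of 3282.5, 3401 and 3183 bp (-0.21 ± 0.069). Among the 50% of regions with the highest scores, those of the 3L end were wider than those of the interior (0.34 ± 0.031) and those of the 2L end differed by less than the spread (0.048 ± 0.18). Regions under 2 kb wide made up 29.2% ± 1.90 of members on the 2L end, 26.9% ± 0.747 on the 3L end, 26.4% ± 2.59 on the X end, 22.8% ± 3.65 on chromosome 4 and 14.3% ± 1.74 on the 3R end, against 16.2% ± 1.21 in the interiors (SD, n = 3).

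**Figure D2:**
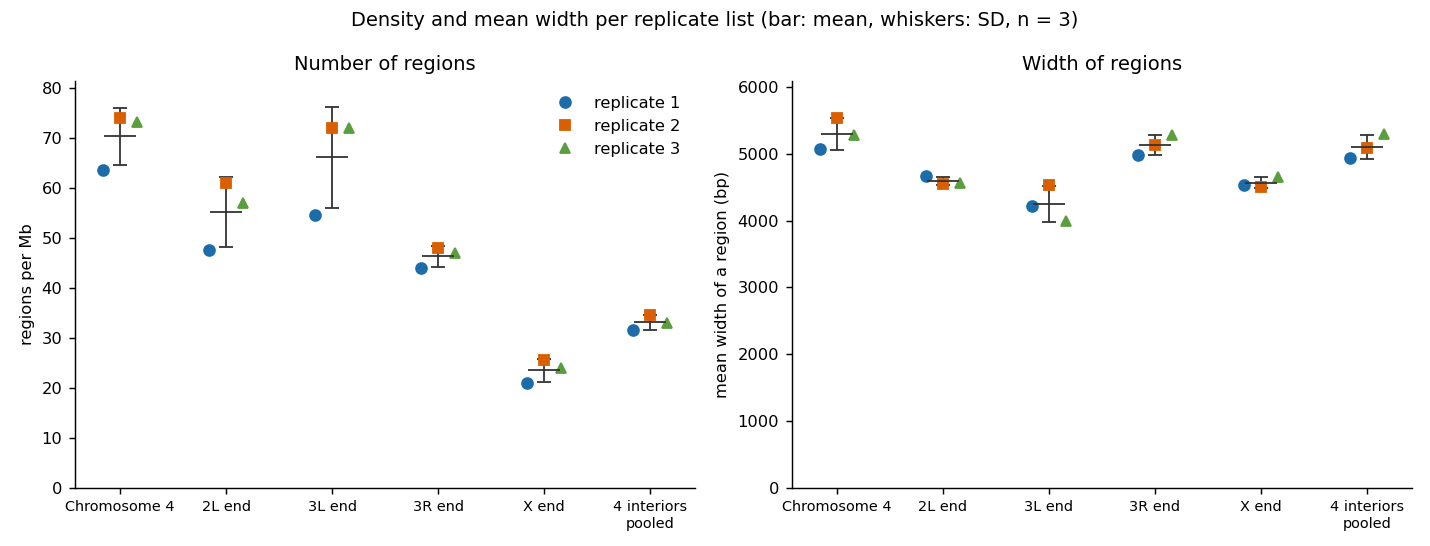
Number of regions per Mb (left) and mean width of a region in bp (right) on chromosome 4, the 4 ends and the pooled interiors, with 1 point per replicate list, the mean as a bar and the SD as whiskers (n = 3). Mean density runs from 23.5 per Mb on the X end to 66.2 on the 3L end and 70.3 on chromosome 4. Mean widths lie between 4254 and 5296 bp.

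Along chromosome 4 every step of 100 kb held H2Av regions. In its 14 steps from the centromere side (the last of 51.9 kb), means of 3 replicates ran from 18.9% to 64.7% of bases, and all 14 lay above 13.5%, the median of 902 such steps in the interiors. The peak was the step from 600 to 700 kb, with 62.6%, 66.2% and 65.5% in the 3 replicates, followed by 900 to 1000 kb, with 46.6%, 64.0% and 60.2%. The lowest step, from 500 to 600 kb, lies directly before the peak, with 16.2%, 21.0% and 19.4%. The last step was also low, at 12.7%, 19.7% and 26.3%. Peaks and troughs thus stood side by side, with no steady change from the centromere side, where the first 1 Mb had 35.7% ± 4.42 and the remaining 0.352 Mb 41.9% ± 4.86 (SD, n = 3).

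The 2L end was made of dense blocks with bare steps between them. Its first 2 steps, next to the centromere side, had 52.4% ± 2.69 and 53.3% ± 8.01 of bases inside regions (SD, n = 3). High and low steps then alternated up to 800 kb, with 51.9% ± 7.19 from 300 to 400 kb, 12.3% ± 7.23 from 400 to 500 kb and 50.6% ± 2.28 from 500 to 600 kb. The 3 steps from 900 to 1200 kb and the step from 1500 to 1600 kb held no region in any replicate. A further dense step followed from 1800 to 1900 kb, with 51.4% ± 3.30. The first 1 Mb had 34.5% ± 3.76, and the second had 16.1% ± 2.08, close to the 17.0% ± 1.45 of the next 1 Mb of the arm.

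The 3L end had a different profile, with its densest steps away from the centromere side. The step next to the centromere side had 28.0% ± 8.68, and the steps from 100 to 300 kb had only 8.24% ± 2.40 and 10.4% ± 5.72 (SD, n = 3). The share then climbed to 63.1% ± 9.64 from 800 to 900 kb and 68.0% ± 8.24 from 1300 to 1400 kb, the highest step of the 5 windows. Beyond 1700 kb it was 3.71% ± 0.515, 24.98% ± 1.95 and 0 in the last 3 steps. Each 1 Mb of the window came to a similar share, with 28.5% ± 6.32 in the first 1 Mb and 27.8% ± 3.38 in the second. The next 1 Mb of the arm had 15.1% ± 0.915. Such shares were not confined to the end, as the step from 4 to 5 Mb had 32.2% ± 1.97.

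On the 3R end the share was higher in the outer 1 Mb. The first 1 Mb had 20.3% ± 1.92 and the second 27.3% ± 1.36, and the next 1 Mb of the arm had 10.5% ± 0.793 (SD, n = 3). Further out the arm had 10.0% ± 0.912 from 3 to 4 Mb. It then had 23.4% ± 1.55 from 4 to 5 Mb and 27.0% ± 1.56 from 5 to 6 Mb, shares like those of the end. Near the centromere side the step from 200 to 300 kb reached 48.6% ± 5.31. The steps from 1200 to 1700 kb formed a block of 30.6% to 56.0%, with its peak from 1400 to 1500 kb. The step from 800 to 900 kb and 2 of the last 3 steps were empty in each replicate.

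The X end was mostly bare. Of its 20 steps, 9 had no region in any replicate, against 165 of 902 steps (18.3%) in the interiors, 4 of 20 on the 2L end, 3 on the 3R end, 1 on the 3L end and 0 of 14 on chromosome 4. With steps of 50 kb empty steps were 57.5% on X, 34.3% in the interiors, 27.5% on 3R, 22.5% on 2L, 12.5% on 3L and 3.57% on chromosome 4, and with 200 kb those of the 3L and 3R ends were 0. The peak step was 1200 to 1300 kb, with 39.1%, 40.7% and 39.7%, followed by 500 to 600 kb (32.7% ± 3.72) and 900 to 1000 kb (30.5% ± 2.14, SD, n = 3). Each 1 Mb of the window was low, with 9.71% ± 0.961 and 11.7% ± 1.16, and the next 1 Mb of the arm had 29.6% ± 1.55. From 3 to 6 Mb the steps of 1 Mb had 14.0% ± 1.59, 18.6% ± 2.12 and 21.3% ± 1.11. The replicates traced these profiles alike. Across the steps of each of the 5 windows, replicate pairs had Spearman correlations of 0.908 to 0.997 (14 or 20 steps, which share libraries).

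**Figure D3:**
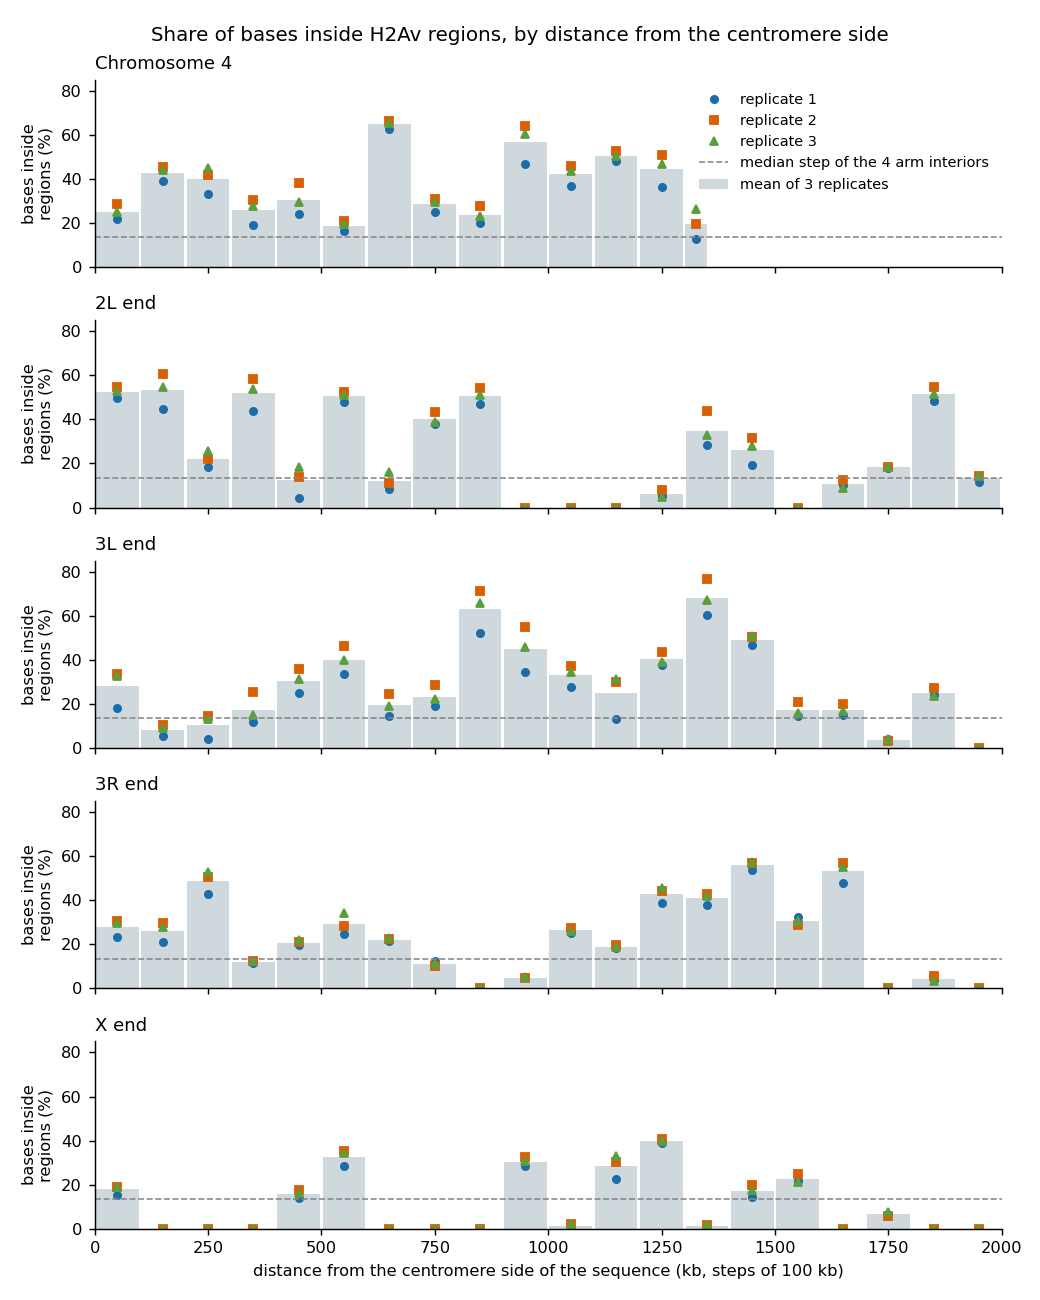
Share of bases inside H2Av regions (y axis, %) in steps of 100 kb from the centromere side (x axis, kb) on chromosome 4 and the 4 ends. Grey bars are means of 3 replicates, points are the replicates and the dashed line is the median step of the interiors (13.5%), which all 14 steps of chromosome 4 exceed.

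Chromosome 4 had few long bare stretches, while its typical gap was no smaller than in the interiors beyond the spread. The median gap between neighbouring regions was 5790, 4237 and 3946 bp on chromosome 4 and 4879, 4365 and 4738 bp in the interiors, a log2 ratio of -0.020 ± 0.26 (SD, n = 3). The longest gap within chromosome 4 was 60.7, 56.7 and 57.1 kb in the 3 replicates. On the ends it was 124.8 ± 11.9 kb on 3L, 165.7 ± 8.84 kb on 3R, 354.6 ± 1.92 kb on 2L and 393.0 ± 39.4 kb on X. Only gaps between neighbouring regions inside a window were counted, not bare sequence at its edge. On 3L the outer edge held a longer bare stretch, with 157.9 kb inside the window. On 3R such a stretch of 162.5 kb exceeded the longest gap of replicate 1 (155.5 kb). Median gaps on the ends were 4446 ± 1463 bp on 2L, 4591 ± 815 bp on 3L, 4074 ± 774 bp on 3R and 3212 ± 694 bp on X.

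Stretches of at least 50 kb without a region in any replicate took up 4.19% of chromosome 4, 17.8% of the 3L end, 24.9% of the 2L end, 38.5% of the 3R end and 76.2% of the X end, against 56.4% of the interiors. Chromosome 4 had 1 of at least 50 kb. Its 3 longest stretches of any length ran from 91571 to 148254 (56.7 kb), from 743970 to 787515 (43.5 kb) and from 509362 to 549908 (40.5 kb), and 1278, 14 and 2427 of their bases lay in combined regions. The longest on the 2L end ran from 21759594 to 22112204 (352.6 kb), with 2811 bases in the combined list. A second on 2L, picked after its value was seen, ran from 21398967 to 21544180 (145.2 kb), with 596 bases. The longest on the X end ran from 21985792 to 22333424 (347.6 kb), close to the centromere side. On 3L and 3R the longest lay at the outer edge of the window and ran on into the interior, from 22283661 to 22701467 (417.8 kb, of which 157.9 kb inside) and from 1837494 to 2164191 (326.7 kb, of which 162.5 kb inside).

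Outside these stretches the windows were more alike. Of the remaining bases, regions held 38.9% ± 4.73 on chromosome 4, 38.7% ± 2.63 on the 3R end, 33.7% ± 3.78 on the 2L end, 34.3% ± 5.90 on the 3L end and 45.2% ± 4.46 on the X end, against 38.7% ± 2.54 in the interiors (SD, n = 3). The comparison depends on the length that counts as a stretch. With 25 kb, chromosome 4 had 46.8% and the interiors 52.0%, and with 100 kb they had 37.3% and 29.2%. This measure was added after the lists were seen, and the stretches were cut from the same lists.

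Members on chromosome 4 and on the 2L and 3L ends ranked low by score. The median percentile in the list was 38.2, 35.2 and 33.2 on chromosome 4, against 53.2, 53.9 and 54.5 in the interiors, a difference of -18.3 ± 3.13 points (SD, n = 3). On the 2L end it was 36.2, 32.8 and 32.8, a difference of -18.0 ± 2.17 points from the 2L interior, and on the 3L end 26.3, 31.6 and 32.2 (-23.4 ± 1.66 against the 3L interior). These 3 windows lay below the interiors in every replicate. The 3R end had 49.0, 50.5 and 43.8 (-8.13 ± 4.88 against its interior, lower in 3 of 3). The X end had 61.3, 45.5 and 46.6, and its difference of -2.23 ± 8.31 had no constant sign. In the combined list the differences were smaller, with -9.09 on chromosome 4, -11.3 on 2L, -14.7 on 3L and -3.96 on 3R. By the same exact permutation test, p was 0.25 for the first 4 differences and 0.75 for X (n = 3).

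Few members reached the top of the lists. On chromosome 4, 3 of 86, 2 of 100 and 4 of 99 regions had a score percentile of 90 or more, a mean of 3.18% ± 1.06. The share was 2.93% ± 0.945 on the 3L end, 6.22% ± 2.46 on the 2L end and 6.43% ± 0.648 on the X end. It was 10.5% ± 0.895 on the 3R end, near the 10.7% ± 0.316 of the interiors (SD, n = 3).

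The lower rank of chromosome 4 was also found among regions of like width, and the gap was greatest among the widest. Score and width were positively related in each window, with a Spearman correlation across the members of 0.600 to 0.724 on chromosome 4 (86 to 100 regions of a list, which are not independent) and of 0.780 to 0.795 in the interiors. On chromosome 4 the median percentile nevertheless was lower among regions of 10 kb or more than among those of 5 to 10 kb (57.7, 70.8 and 60.2) in each replicate, as on the X end. Among regions of 10 kb or more, of which chromosome 4 had 9 in each replicate, the median percentile was 44.4, 60.5 and 51.9, against 86.4, 84.5 and 85.5 in the interiors. The wide regions of the 3L end were alike in this, with 52.8, 63.4 and 57.3 over 10, 12 and 9 regions. Those of the 2L end, at 83.3, 86.6 and 84.7, and of the 3R end, at 88.7, 91.4 and 90.1, ranked as in the interiors. Among regions of 2 to 5 kb, chromosome 4 had 38.4, 27.6 and 28.3 and the interiors 47.7, 48.4 and 47.9. The width classes were chosen after the lists were seen.

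**Figure D4:**
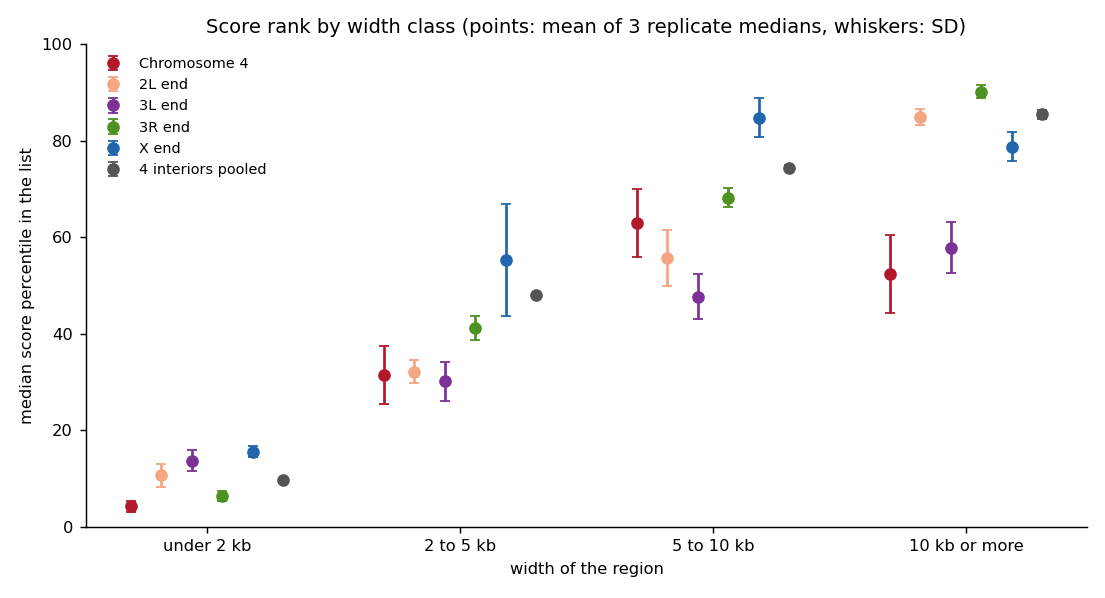
Median score percentile of the members in their list (y axis, 0 to 100) by width class (x axis) on chromosome 4, the 4 ends and the pooled interiors. Points are means of the medians of 3 replicates and whiskers are SDs. Among regions of 10 kb or more, chromosome 4 (52.3) and the 3L end (57.8) lie below the interiors (85.5).

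The widest combined regions of chromosome 4 were of middling score. The widest ran from 163868 to 198058 (34191 bp) and was at percentile 63.9 of the combined list, with 41.9, 54.2 and 51.8 for the largest overlapping region of replicates 1, 2 and 3. Replicates 2 and 3 had it as a single region of 34063 and 34134 bp, and replicate 1 as 3 regions that covered 95.6% of it. The next ran from 643414 to 669676 (26263 bp, percentile 63.0), inside the densest step of the chromosome. The next pair are neighbours, from 1166621 to 1190981 (24361 bp, percentile 75.4) and from 1142481 to 1166564 (24084 bp, percentile 59.3), and a single region of 46664 bp in replicate 2 overlapped both. The last ran from 905499 to 928789 (23291 bp, percentile 52.6) and was split into 4, 3 and 4 replicate regions. All 5 overlapped regions of each replicate.

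The highest-scoring combined regions of chromosome 4 were narrower and also overlapped regions of each replicate. The first, from 198155 to 204314 (6160 bp), begins just after the widest region ends and was at percentile 94.996, with 85.8, 95.7 and 86.8 in the replicates. It was followed by 225670 to 232180 (6511 bp, percentile 94.1) and 1045414 to 1053613 (8200 bp, percentile 94.0). Then came 806996 to 810623 (3628 bp, percentile 88.7) and 1200071 to 1209162 (9092 bp, percentile 88.5). In each of the 3 replicates these 5 were at percentile 77.5 or above.

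On the 2L and 3L ends the highest scores of the combined list belonged to very short regions with little or no counterpart in the replicates. On 2L they were 22795712 to 22797047 (1336 bp) and 22285201 to 22286335 (1135 bp), at percentile 99.9 and 99.7 and in no replicate list. The score of the first is shared by 6 regions of the combined list. On 3L they were 24213977 to 24214977 (1001 bp, percentile 99.8), in no replicate, and 24037825 to 24038852 (1028 bp, percentile 99.1), which a region of replicate 3 overlapped over 17.0% of its length. The highest on the other 2 ends were in all 3 replicates. On 3R they were 1371902 to 1383549 (11648 bp, percentile 98.7) and 1607675 to 1621941 (14267 bp, percentile 97.5). On X they were 20897664 to 20909300 (11637 bp) and 21871837 to 21877963 (6127 bp), both at percentile 95.2.

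The widest regions of the ends were also found in every replicate. On 2L, the region from 21140759 to 21170840 (30082 bp) was both the widest and of high score, at percentile 98.0, with 97.6, 98.6 and 97.7 in the replicates. The next on 2L, from 22907499 to 22936241 (28743 bp), was at percentile 60.2. The widest combined member was on 3L, from 23673595 to 23710159 (36565 bp, percentile 77.9), and the second there ran from 23568004 to 23588827 (20824 bp, percentile 68.5). On 3R they ran from 211555 to 231093 (19539 bp, percentile 91.3) and from 1634569 to 1652846 (18278 bp, percentile 70.9). On X they ran from 21474031 to 21495919 (21889 bp, percentile 94.6) and from 22405202 to the last base of the arm at 22422827 (17626 bp, percentile 85.1).

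Replicates overlapped less on the 2L and 3L ends than on chromosome 4, the other ends or the interiors in the full lists. The Jaccard index (bases shared by a pair of replicates over bases in either) was 0.681, 0.690 and 0.738 on the 2L end and 0.622, 0.659 and 0.731 on the 3L end for replicates 1 and 2, 1 and 3, and 2 and 3. It was 0.721, 0.765 and 0.825 on chromosome 4. The 3R end, with 0.797, 0.816 and 0.850, and the X end, with 0.771, 0.787 and 0.828, lay nearer the interiors, with 0.814, 0.820 and 0.851. In each window the pair of replicates 2 and 3 had the highest index. With the highest-scoring 50% of regions chromosome 4 lost its place above the 2L and 3L ends. The mean index was then 0.593 ± 0.12 on chromosome 4, 0.607 ± 0.12 on the 3L end and 0.699 ± 0.085 on the 2L end (SD of 3 pairs). These ends stayed below the 3R end (0.828), the X end (0.869) and the interiors (0.813). No test was made, since pairs share a list. Bases in all 3 replicates made up 67.3% of those in any on chromosome 4, 58.8% on the 2L end, 54.5% on the 3L end, 74.4% on the 3R end and 70.9% on the X end, against 75.4% in the interiors.

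Scores of shared regions ranked alike in most windows, and least so on the 3L end. The Spearman correlation across regions shared by a pair of replicates was 0.702, 0.761 and 0.834 on the 3L end (99, 99 and 115 regions), and 0.840, 0.858 and 0.877 on chromosome 4 (80, 83 and 84 regions). It was 0.815 to 0.863 on the 2L end, 0.842 to 0.917 on the 3R end and 0.766 to 0.924 on the X end, against 0.863 to 0.905 in the interiors. These regions are not independent replicates.

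The combined list was supported least on the 2L and 3L ends. Of its regions, 61 of 148 on the 2L end (41.2%, 95% exact Clopper-Pearson interval 33.2 to 49.6) and 76 of 187 on the 3L end (40.6%, 33.5 to 48.1) overlapped a region in all 3 replicates. In the interiors 2279 of 3527 did (64.6%, 63.0 to 66.2). Chromosome 4 had 62 of 108 (57.4%, 47.5 to 66.9), the 3R end 67 of 108 (62.04%, 52.2 to 71.2) and the X end 33 of 59 (55.9%, 42.4 to 68.8), and these 3 intervals overlap that of the interiors. The intervals cover counting error only. Of the regions in exactly 2 replicates, 23 of 31 on the 2L end and 27 of 34 on the 3L end were in replicates 2 and 3. In the interiors 218 of 297 were, a like part. Regions in exactly 2 replicates were more common on these ends, however. They made up 20.9% of the combined regions on the 2L end and 18.2% on the 3L end, against 8.42% in the interiors. Regions missing from replicate 1 alone were thus 23 of 148 and 27 of 187, against 218 of 3527 in the interiors. Without replicate 1 the share in both other lists, which cannot be lower, was 56.8% on the 2L end and 55.1% on the 3L end, against 70.8% in the interiors.

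Regions in no replicate were short in each of the 5 windows but differed in rank. They numbered 15 on chromosome 4, with a median width of 1086 bp and a median percentile of 8.32, and 19 on the 3R end, with 1273 bp and 11.3. On the 2L end there were 35, with 1155 bp and a percentile of 32.9, and on the 3L end 38, with 1185 bp and 30.2. The X end had 9, with 1035 bp and 30.2. The interiors had 556, with 1241.5 bp and 17.98. These were 15.8% of the combined regions in the interiors. The share was 13.9% on chromosome 4, 15.3% on the X end and 17.6% on the 3R end. It was higher on the 3L end (20.3%) and the 2L end (23.6%). Only the 95% exact interval of the 2L end (17.06 to 31.3) lay clear of that of the interiors (14.6 to 17.01), and just so. The combined list also added more sequence on the 3L and 2L ends. It covered 1.15 times the bases in any replicate on the 3L end and 1.11 times on the 2L end, against 1.07 on chromosome 4, 1.09 on the 3R end, 1.07 on the X end and 1.07 in the interiors.

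**Figure D5:**
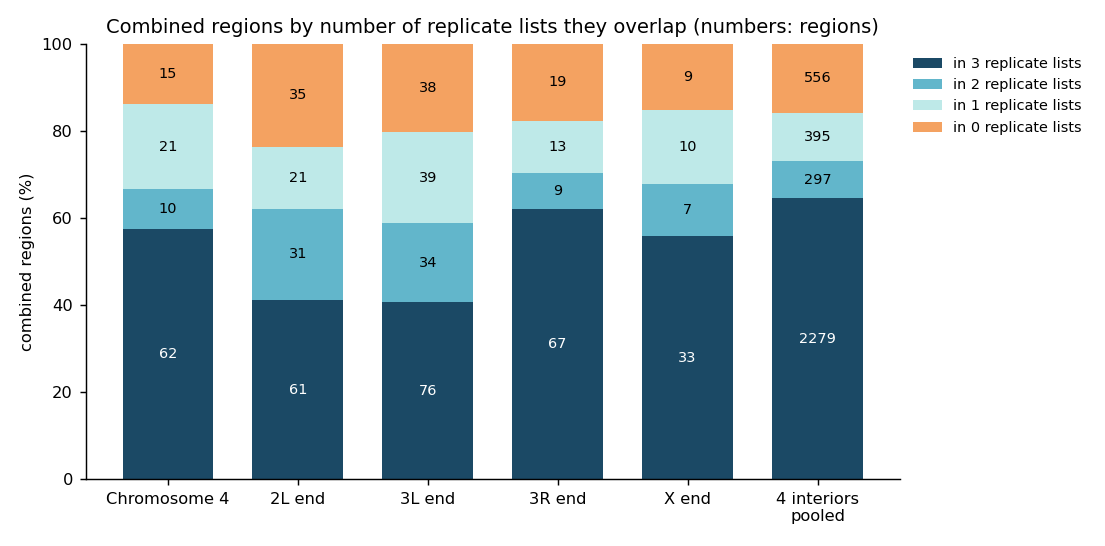
Regions of the combined list (y axis, % of the regions of each window) by the number of replicate lists they overlap, on chromosome 4, the 4 ends and the pooled interiors, with numbers of regions in the bars. The 2L and 3L ends have the smallest share in all 3 replicates (41.2% and 40.6%).

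The edges of the windows crossed no combined region. The nearest regions inside and outside had midpoints 41.0 and 86.8 kb from the edge on 2L, 160.0 and 261.8 kb on 3L, 164.5 and 171.2 kb on 3R and 210.0 and 26.4 kb on X. The outer regions were at percentile 83.8, 79.6, 78.1 and 80.3, and the inner ones at 43.3, 28.8, 71.9 and 52.2. They were chosen by position and describe the cut alone.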

How the data were processed

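The 3 ChIP lists and the combined list of H2Av regions were analysed. The inputs have no list here. Bowtie 0.12.7 is named in the submitters' processing notes, and regions were placed on FlyBase release 5, per the file headers. No source used here gives the caller, its thresholds or how replicates were merged. A region carries a deposited score on a scale that no header names, so scores were ranked within a list only. Regions past the end of a sequence (0, 1, 2 and 2 in replicates 1, 2, 3 and the combined list) were ended there.

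Groups and replicate numbers came from the labels. Bases were counted within windows, and regions were assigned by midpoint. Overlap needed at least 1 base. Shares and medians were compared within each list, and the exact permutation test flipped signs over the 3 replicates (two-sided). SDs are over the same 3. Named regions were the 5 widest and 5 highest-scoring combined regions of chromosome 4, the 2 widest and 2 highest-scoring of each end, and the longest stretches without a region. The windows, comparisons and alternatives were chosen with earlier results of these data known. On simulated data, the interval code was tested in 200 pairs of lists, with 0 results off a per-base tally. Arm 2R was not used here. Gene positions were to hand for release 6 alone, so no gene is named and no sequence is shown. Python 3.11.15, numpy 2.4.6, scipy 1.17.1 and matplotlib 3.10.9 were used.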

Additional observations from a re-analysis of the deposited data

Results flagged for a closer look

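The ends went opposite ways against the interiors of their arms. In covered share the log2 ratio of end to interior was 0.69 on 2L, 0.77 on 3L and 0.53 on 3R, above 0 in 3 of 3 replicates each, and -0.84 on X, below 0 in 3 of 3. In median width it was 0.067 on 3R, above 0 in 3 of 3 replicates, and -0.25 on 2L, -0.44 on 3L and -0.21 on X, below 0 in 3 of 3. The differences between arms were not tested.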

How the results depend on the processing

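No paired analysis was possible because only the ChIP libraries, and not their inputs, have a region list here. The comparisons between windows were made within each replicate list from the start. The covered-share ratios kept their direction in 62 of 63 alternatives. Leaving out a replicate could not turn them (27 of 27 kept), as each ratio had the same sign in all 3 replicates. The count of alternatives is by the mean alone, and chromosome 4 against the 3R end was above 0 in only part of the replicates for the highest-scoring regions. The exception among the alternatives was the 3L end (-0.097) for the 50% of regions with the highest scores. The log2 ratio of median width turned to 0.024 on chromosome 4, 0.048 on the 2L end and 0.34 on the 3L end with that 50%. On chromosome 4 it was 0.053 for mean width and 0.0062 in the combined list, and on the 3R end -0.065 with ends of 1 Mb. The X end differed in median percentile by 3.03 points without shared scores, by 10.5 with ends of 1 Mb, and by -7.02 to 0.34 with a replicate left out, so it has no stable direction.

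With the highest-scoring 50%, the Jaccard index was 0.593 on chromosome 4, 0.607 on the 3L end, 0.699 on the 2L end and 0.869 on the X end, and with ends of 1 Mb it was 0.598 on 3L. With a replicate left out only 1 pair remains, so the index repeats the pair values given above and is no further check. It ran from 0.721 to 0.825 on chromosome 4, 0.681 to 0.738 on 2L, 0.622 to 0.731 on 3L and 0.797 to 0.850 on 3R. On X it ran from 0.771 to 0.828 and in the interiors from 0.814 to 0.851. The highest value in each was that without replicate 1. Combined regions in all replicates came to 41.7% on chromosome 4, 31.1% on 2L, 24.1% on 3L, 47.2% on 3R and 55.2% in the interiors when an overlap of 50% of both regions was asked, and to 80.8% on X and 71.2% in the interiors with the highest-scoring 50%. With a replicate left out they ran from 43.2% to 56.8% on 2L, 42.2% to 55.1% on 3L and 65.4% to 70.8% in the interiors. Overlap with fewer lists was then asked, so these shares could not fall.

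Median gaps with the highest-scoring 50% were 10558 bp on chromosome 4, 19536 on 2L, 11365 on 3L, 17384 on 3R, 4306 on X and 12840 in the interiors. In the combined list they were 3187, 2322, 2577, 3042, 1954.5 and 3492 bp in that order. With regions under 200 bp apart joined they were 5634 bp on 3R and 5278 bp in the interiors. The longest gap with the highest-scoring 50% was 128 kb on chromosome 4, 358 on 2L, 436 on 3L, 472 on X and 744 in the interiors. In the combined list it was 44.4 kb on chromosome 4, 291 on 2L, 86.0 on 3L, 155 on 3R, 347 on X and 637 in the interiors. Steps with no region in the interiors came to 34.3% with 50 kb and 4.65% with 200 kb, and on the 2L and X ends to 10.0% and 30.0% with 200 kb.

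Outside stretches of at least 25 kb, an alternative added after the lists were seen, regions held 46.8% on chromosome 4, 41.2% on 2L, 49.2% on 3R, 51.0% on X and 52.0% in the interiors. With 100 kb they held 33.6% on 3R, 32.5% on X and 29.2% in the interiors. Where an alternative changed a value, the cause was not tested. Depth is unknown, so the lists cannot show what bare stretches hold below the threshold of the region calls.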
